A study of Mus musculus with 8 samples.

Results

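Complement and coagulation factors are plasma proteins that the liver makes, and their transcripts were followed in mouse liver over age and after loss of Sirt1. The set was a list of 34 named genes, 14 of complement and 20 of coagulation, and each gene was read by the probe set of highest mean log2 signal among those annotated to that gene alone. Of these, 31 genes were measured (12 of complement and 19 of coagulation), of 18193 genes with such a probe set on the array. C3 and Cpb2 were not analysed here, and C4b was left out because its probe set is also annotated to C4a. All 31 measured genes passed the filter on low values and were tested.

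The RNA came from liver and was measured on 8 one-colour Affymetrix mouse arrays. Wild type (WT) mice of 3, 12 and 19 months and sirt1 KO mice of 3 months (MT) had 2 arrays each, and the strain of every group was a mix of 129/FVB/Black Swiss. The MT mice carried a germline deletion of exons of Sirt1 in all tissues, and livers of all groups were taken in a morning window. The methods describe few MT animals as surviving to adulthood, so the MT arrays came from survivors. Age was sampled in WT mice only. The text of the study names more mice per group than there were arrays, and nothing in the labels says that the arrays came from separate animals, so the p-values measure only the scatter of these samples, some of which may be technical.

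Complement is a chain of proteases and pore-forming proteins that marks and lyses microbes. It is started by antibodies, by lectins that bind microbial sugars or by slow spontaneous turnover, all routes meet at the cleavage of C3, and the terminal components then assemble into a membrane pore. Coagulation is a related chain of serine proteases that ends with thrombin cutting fibrinogen into fibrin, which plasmin dissolves again. Hepatocytes make most of the proteins of both systems, many of them under liver-enriched factors of the HNF1, HNF4 and C/EBP families, and a part of them is induced with the acute phase response through STAT3 and C/EBP factors.

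Of the 31 measured genes, 25 had an entry in a RefSeq table of promoters. The sequences shown here are the 250 bases before the annotated start of the members that the results turn on: F11 and C9, which had the largest differences between MT and WT, Klkb1, the next coding gene to F11, C8a and C8b, neighbours whose signals split the same way between the 19-month arrays, and Fgb, the member of highest signal, whose level was steady. They are written 5′ to 3′ on the strand of the gene in build GRCm38.p6, and capitals mark matches to the motifs searched.
F11, chr8:45262032-45262281, minus strand: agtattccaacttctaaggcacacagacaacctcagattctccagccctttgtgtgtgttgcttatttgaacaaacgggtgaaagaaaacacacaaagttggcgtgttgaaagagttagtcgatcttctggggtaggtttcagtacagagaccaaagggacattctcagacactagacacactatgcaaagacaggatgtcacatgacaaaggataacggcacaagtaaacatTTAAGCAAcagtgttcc
Klkb1, chr8:45294836-45295085, minus strand: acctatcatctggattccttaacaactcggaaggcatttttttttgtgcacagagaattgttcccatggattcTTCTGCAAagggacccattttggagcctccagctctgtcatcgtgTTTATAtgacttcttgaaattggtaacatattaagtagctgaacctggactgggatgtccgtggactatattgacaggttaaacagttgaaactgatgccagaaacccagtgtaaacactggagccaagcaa
C9, chr15:6445096-6445345, plus strand: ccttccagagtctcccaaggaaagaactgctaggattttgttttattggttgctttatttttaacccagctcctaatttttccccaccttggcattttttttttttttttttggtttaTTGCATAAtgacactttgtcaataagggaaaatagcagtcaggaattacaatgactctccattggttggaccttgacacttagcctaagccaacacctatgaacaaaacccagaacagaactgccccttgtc
C8a, chr4:104876399-104876648, minus strand: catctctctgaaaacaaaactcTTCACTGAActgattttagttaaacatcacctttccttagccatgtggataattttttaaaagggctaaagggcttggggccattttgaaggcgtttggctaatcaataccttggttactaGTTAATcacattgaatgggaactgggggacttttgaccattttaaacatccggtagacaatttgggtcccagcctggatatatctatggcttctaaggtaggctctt
C8b, chr4:104766067-104766316, plus strand: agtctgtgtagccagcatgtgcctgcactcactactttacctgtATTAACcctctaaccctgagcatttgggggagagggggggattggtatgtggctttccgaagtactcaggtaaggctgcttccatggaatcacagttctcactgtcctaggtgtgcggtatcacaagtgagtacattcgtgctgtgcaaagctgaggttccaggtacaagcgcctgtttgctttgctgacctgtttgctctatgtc
Fgb, chr3:83049864-83050113, minus strand: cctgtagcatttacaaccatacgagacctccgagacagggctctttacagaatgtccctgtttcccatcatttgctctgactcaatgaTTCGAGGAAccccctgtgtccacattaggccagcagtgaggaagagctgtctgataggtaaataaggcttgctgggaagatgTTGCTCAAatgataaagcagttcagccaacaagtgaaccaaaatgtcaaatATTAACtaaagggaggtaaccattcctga

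The motifs were searched on both strands. The C/EBP motif TTGCNNAA was found in 6 of the 25 members with an entry (24%) and in 9.56% of all 32851 promoters of the same length. In F11 it lay from -17 to -10 bases of the start, in Klkb1 from -177 to -170, in C9 from -132 to -125 and in Fgb from -80 to -73. The motif GTTAAT, which is only a part of the full HNF1 site, was found in 6 of 25 members and in 6.43% of all promoters. C8a (from -107 to -102), C8b (from -206 to -201) and Fgb (from -29 to -24) held it. The STAT motif TTCNNNGAA was found in 6 of 25 members and in 7.02% of all promoters, among them C8a from -228 to -220 and Fgb from -162 to -154. The HNF4 motif CAAAGNNCA was found in 3 members (12%) and in 5.49% of all promoters. Of the motifs bound by clock factors, the E-box CACGTG was in 0 of 25 members and in 6.02% of all promoters, and the D-box TTATGNAA was in C9 only, on the same bases as its C/EBP match, and in 3.07% of all promoters. The TATA box TATAAA was in Hc and Klkb1 and in 12.4% of all promoters, and the match in Klkb1 lay from -132 to -127. These matches are descriptions of the letters and not measured binding.

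The members also cluster in the genome. In the order of RefSeq genes, 5 pairs of members are neighbouring coding genes: C8b and C8a, F11 and Klkb1, F7 and F10, Fgg and Fga, and Fga and Fgb.

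The arrays had been scaled to the same trimmed mean, and 22519 probe sets in the upper 50% of mean signal entered the test. On every array 10 members lay above the 99th percentile of signal and 24 above the 95th. Hepatocyte markers (Alb, Ttr, Apoa1 and others, 11 measured of 13) summed to between 380800 and 492200 over the 8 arrays, and none of them lay below the array median on all arrays. The Sirt1 probe set read 589 and 539 in WT and 615 and 713 in MT livers at 3 months (log2 difference 0.23 ± 0.20 SE, limma adjusted p = 0.674), and the sources used here do not say whether it lies in the deleted part of the gene, so it checks nothing. Xist lay between the 95.2nd and 99.2nd percentile on all arrays and the 9 probe sets of 3 Y-linked genes at or below the 43.1st, while the methods describe the mutant mice as males. The controls that read the 3′ end of pyruvate carboxylase exceeded those of its 5′ end by 3.88 to 5.10 on the log2 scale on 6 arrays. On the 19-month arrays 1 and 2 the excess was 5.86 and 4.77, so only array 1 lay outside that range. The same difference for Gapdh was -0.39 and -0.44 on the 19-month arrays and -0.62 to -0.34 elsewhere. For actin it was 1.23 and 1.25, and 0.97 to 1.48 elsewhere, so these 2 controls did not set the 19-month arrays apart. In bulk liver, fewer cells of a type and less RNA per cell cannot be told apart.

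No member passed the test in any comparison. With limma on log2 signals and Benjamini-Hochberg adjustment over all tested probe sets, 0 of 31 members had an adjusted p under 0.05 between MT and WT at 3 months, where 0.515% of all tested probe sets did, and 5 members had an unadjusted p under 0.05, where 13.5% of all did. Between 12 and 3 months the count was 0 of 31 against 0.0133% of all, with 2 members at an unadjusted p under 0.05 against 8.57% of all. Between 19 and 3 months it was 0 of 31 against 0.0355%, with 6 members against 12.5%. Between 19 and 12 months it was 0 of 31 against 0%, with 4 members against 10.7%. In the F test of any difference among the 4 groups, 0 of 31 members passed against 0.431% of all, and F11 (adjusted p = 0.115), C9 (0.12) and C6 (0.123) came nearest. The median 95% interval of a member, not adjusted for the number of tests, reached 0.31 to either side of its log2 difference. The comparisons against 3 months share the WT 3-month arrays, so the values given for them are not independent of each other.

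**Figure D1:**
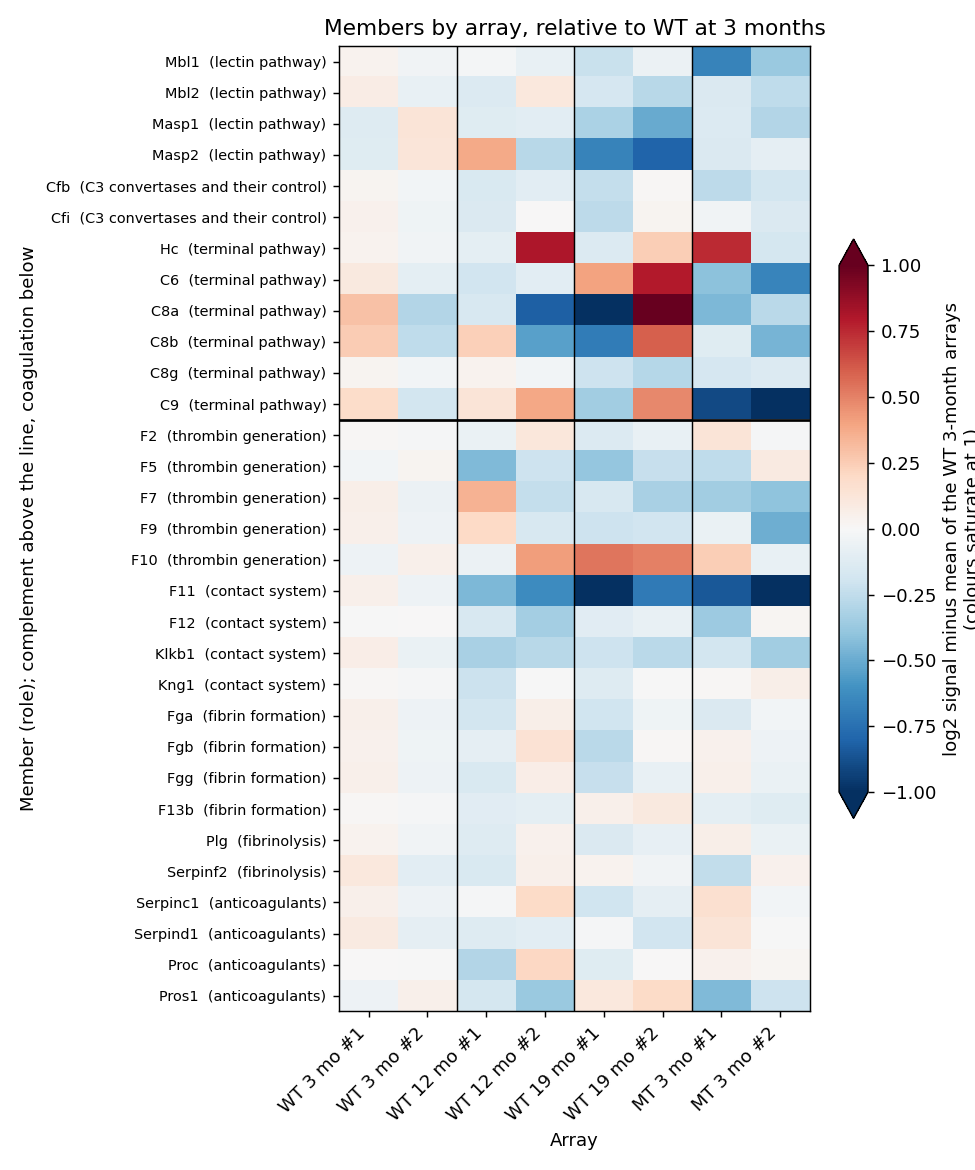
Log2 signal of the 31 members on each of the 8 arrays minus the mean of the 2 WT arrays at 3 months, with complement genes above the thick line and coagulation genes below. The fibrinogen, prothrombin and plasminogen genes stay pale across all arrays, F11 is blue on every array but the WT 3-month ones, C9 is blue on both MT arrays, and C8a has opposite colours on the 2 arrays of 19 months.

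Signals of the members ran from 242 for C6 to 68383 for Fgb, and since probe sets differ in efficiency these levels do not rank the genes. Over all 8 arrays 18 of the 31 members stayed within a range of 1.5-fold, 14 of 19 in coagulation and 4 of 12 in complement. Fgb, which encodes the fibrinogen beta chain, had signals of 63879 and 60210 in WT at 3 months, 58308 and 68383 at 12 months, 51521 and 62371 at 19 months, and 63832 and 59727 in MT. The 4 groups overlapped. Plg, which encodes plasminogen, ranged over 1.15-fold, F13b, the carrier subunit of factor XIII, over 1.16-fold, Kng1, which encodes kininogen, over 1.21-fold and Fgg, the fibrinogen gamma chain, over 1.23-fold. A close paralog, Kng2, may share the Kng1 probe sets, which was not tested.

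The first comparison asks what loss of Sirt1 did to these genes at 3 months. Complement genes lay mostly below their WT level, with 11 of 12 below 0 and a median log2 difference of -0.22, while coagulation genes had 13 of 19 below 0 and a median of -0.08. Over all tested probe sets the median was 0.02 and 47.7% were below 0. The complement count stayed at 11 of 12 with the arrays quantile normalized or centred on their medians, and the coagulation count was 14 and 13 of 19. In 7 complement genes both MT arrays lay below both WT arrays and in 0 above, and in coagulation in 6 below and 1 above, whereas 21.7% of all tested probe sets were separated downwards and 24% upwards. Without WT array 1 the coagulation median was 0.0023. Complement and coagulation were not tested against each other.

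F11, which encodes factor XI, a zymogen whose active form amplifies thrombin formation, had the smallest p of all members. Its signals were 4635 and 4319 in WT and 2487 and 1707 in MT. Both MT arrays lay below both WT arrays. The log2 difference was -1.12 ± 0.21 (SE, n = 2 arrays a group), with an interval from -1.60 to -0.64 and a limma adjusted p of 0.0593, just over the threshold. It passed with a robust variance prior (adjusted p = 0.0382), and over all alternatives its adjusted p ran from 0.0382 to 0.31. Without MT array 1 the value was -1.39 with an adjusted p of 0.0453, but the MT group is then a single array that is assumed to vary like the other groups. Klkb1, its neighbour, encodes prekallikrein, the partner protease of the contact system. It read 16903 and 15389 in WT and 14232 and 12665 in MT, again without overlap, with a log2 difference of -0.26 ± 0.12 (adjusted p = 0.37). The other contact factors, F12 and Kng1, overlapped between the groups.

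C9, the pore-forming subunit of the membrane attack complex, had the largest difference of any member. Its signals were 13524 and 10447 in WT and 6348 and 3406 in MT. The groups did not overlap, and the MT arrays were 0.90 apart from each other on the log2 scale. The log2 difference was -1.35 ± 0.32 with an adjusted p of 0.104, which ran from 0.0689 to 0.444 over the alternatives. C6, another terminal component and the dimmest member, read 409 and 358 in WT and 289 and 242 in MT (-0.53 ± 0.21, adjusted p = 0.298). Of the other terminal genes all but C8g overlapped between the groups. Hc, which encodes C5, read 6657 and 6352 in WT and 10928 and 5760 in MT.

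Mbl1, a mannose-binding lectin that starts the lectin pathway, read 10944 and 10438 in WT and 6711 and 8281 in MT. Both MT arrays were below both WT arrays. The log2 difference was -0.52 ± 0.14 (adjusted p = 0.132, from 0.105 to 0.509 over the alternatives). The second lectin, Mbl2, had a difference of -0.20 (adjusted p = 0.524), and the lectin-associated proteases Masp1 and Masp2 had differences of -0.22 and -0.11. Cfb, which supplies the protease of the alternative C3 convertase, read 12628 and 12220 in WT and 10343 and 10958 in MT (-0.22 ± 0.12, adjusted p = 0.477). Its groups did not overlap, whereas those of Cfi, which inactivates C3b, did.

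Among the coagulation genes outside the contact system, F7 and Pros1 followed F11 and Klkb1 by p. F7, the protease that tissue factor activates, read 5329 and 4924 in WT and 4021 and 3881 in MT (-0.37 ± 0.18, adjusted p = 0.416). Pros1, which encodes the anticoagulant cofactor protein S, read 1388 and 1487 in WT and 1058 and 1245 in MT (-0.32 ± 0.15, adjusted p = 0.401). In both genes the arrays did not overlap. For 14 of 19 coagulation genes the log2 difference lay within 0.2 of 0, against 3 of 12 complement genes and 10164 of the 22519 tested probe sets. The fibrinogen genes Fga, Fgb and Fgg were among the 14. Their geometric mean signals were 44041, 61745 and 50043 in MT and 46727, 62017 and 50325 in WT.

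**Figure D2:**
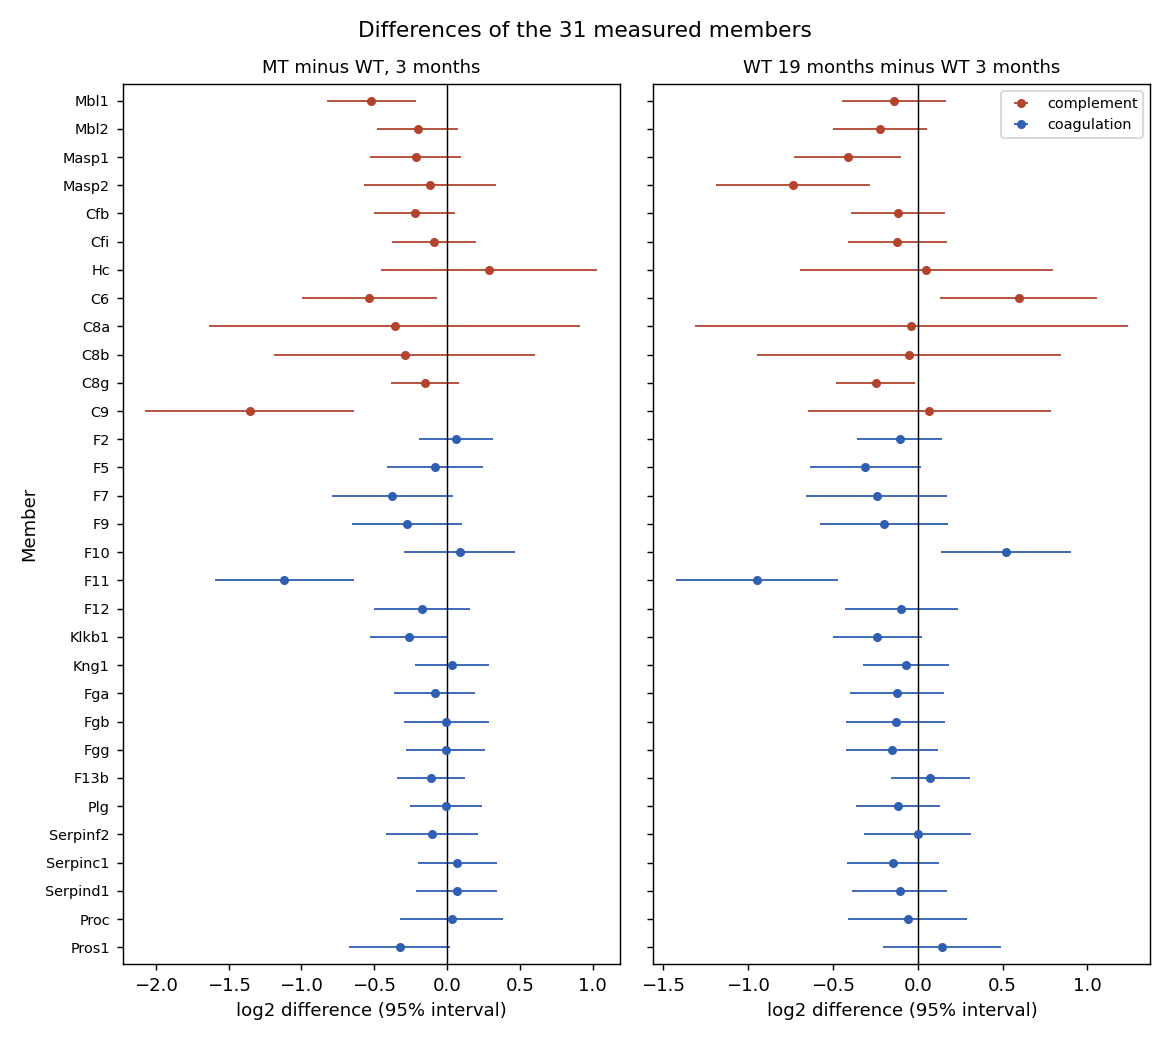
Log2 difference of each member (point) with its 95% interval (bar) from the limma fit, between MT and WT at 3 months on the left and between WT at 19 and 3 months on the right, with complement in red and coagulation in blue. F11 lies well below 0 in both panels (-1.12 and -0.95), C9 lies at -1.35 on the left and its interval spans 0 on the right, and most coagulation genes lie close to 0.

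The second comparison asks how the genes stood in middle age. At 12 months 8 of 12 complement genes (median -0.06) and 13 of 19 coagulation genes (median -0.05) lay below their level at 3 months, against 50.5% of all tested probe sets. With the arrays centred on their medians the counts were 6 of 12 and 10 of 19 and the medians -0.011 and -0.0035. Both members with an unadjusted p under 0.05 (2 of 31, against 8.57% of all tested probe sets) were contact system genes. F11 read 3281 and 2900 at 12 months, below both arrays of 3 months (-0.54 ± 0.21, adjusted p = 0.528). Klkb1 read 12878 and 13294 (-0.30 ± 0.12, adjusted p = 0.522), also below both. F5, the cofactor of activated factor X, read 21579 and 22427 at 3 months and 16170 and 19048 at 12 months (-0.33 ± 0.15, adjusted p = 0.585).

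The remaining genes of the rule were smaller differences. Pros1 read 1272 and 1112 at 12 months (-0.27 ± 0.15, adjusted p = 0.675), Cfb 11208 and 11536 (-0.13 ± 0.12, adjusted p = 0.839) and C6 335 and 355 (-0.15 ± 0.21, adjusted p = 0.896). In each the 12-month arrays lay below those of 3 months. Separated downwards were 2 complement and 7 coagulation genes, and upwards 0, against 20.8% and 19.3% of all probe sets.

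The third comparison asks the same of old age. At 19 months 9 of 12 complement genes (median -0.12) and 15 of 19 coagulation genes (median -0.11) lay below their level at 3 months, against 47% of all tested probe sets, whose median was 0.02. For coagulation this direction depended on the scaling, while complement stayed below 0 with a smaller median. With quantile normalization the counts below 0 were 8 of 12 and 6 of 19, the complement median was -0.034 and the coagulation median was 0.04. Centred on the array medians the counts were 9 of 12 and 15 of 19. Members are bright, and the 942 probe sets with a mean signal of at least 10000 include 18 of them, 4 of complement and 14 of coagulation. These 942 probe sets had a median difference of -0.12 with the deposited scaling and 73.6% below 0. Without the 19-month array 1 the complement median was 0.02. The sum of the hepatocyte markers was 380800 and 392600 at 19 months and 441700 to 459000 at 3 months, 9 of 11 of them lay below 0 (6 of 11 with quantile normalization), and their part in the result was not tested.

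**Figure D3:**
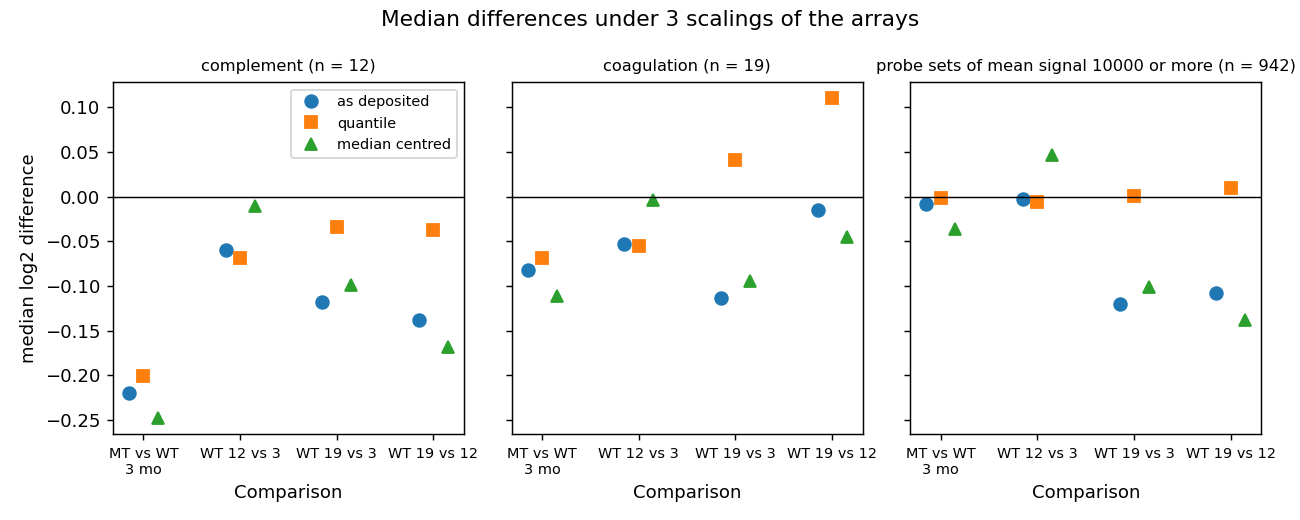
Median log2 difference of the 12 complement genes, the 19 coagulation genes and the 942 brightest probe sets (mean signal of at least 10000) in each comparison, with the arrays as deposited (circles), quantile normalized (squares) or centred on their medians (triangles). The 3 scalings give similar medians between MT and WT, while at 19 months quantile normalization moves the coagulation median from -0.11 to 0.04 and that of the bright probe sets from -0.12 to near 0.

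F11 again had the smallest p. It read 1965 and 2740 at 19 months, both below the arrays of 3 months and of 12 months, with a log2 difference of -0.95 ± 0.21 from 3 months (adjusted p = 0.182, from 0.0665 to 0.552 over the alternatives). So all 4 arrays of the older WT groups and both MT arrays lay below both young WT arrays. Klkb1 read 13973 and 13405 (-0.24 ± 0.12, adjusted p = 0.458) and F5 16815 and 18799 (-0.31 ± 0.15, adjusted p = 0.437, but -0.04 with its other probe set), without overlap. F10, which encodes the protease that forms thrombin, went the other way, with 13201 and 14193 at 3 months and 19859 and 19432 at 19 months (0.52 ± 0.17, adjusted p = 0.288). The other probe sets of F10 gave -0.13 and -0.08, so the direction rests on the brightest one.

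In the lectin pathway all 4 genes were below 0 at 19 months and separated, where 21.8% of all tested probe sets were separated downwards and 73.6% of the bright ones lay below 0. Mbl1 had -0.14 and Mbl2 -0.22, where the median of the bright probe sets was -0.12. Masp2, the protease that cleaves C4 and C2, read 4904 and 5810 at 3 months and 3365 and 3069 at 19 months. Both old arrays were below all other arrays of the series. The log2 difference was -0.73 ± 0.20 (adjusted p = 0.238, from 0.0637 to 0.713 over the alternatives), and its other probe set gave -0.31. The methods' t-test with a fold over 1.5, run without detection calls, called Masp2 at 19 against 3 months and no other member in any comparison. In that comparison it called 750 of the 22519 tested probe sets, so 1 of 31 members does not set Masp2 apart. After Benjamini-Hochberg adjustment it called no member. Masp1, whose splice forms encode several lectin-associated proteins, read 5431 and 6487 at 3 months and 4760 and 4177 at 19 months (-0.41 ± 0.14, adjusted p = 0.301). Its other probe sets gave -0.09, 0.11, 0.34 and, below the filter, 0.07, and their mean with the brightest one gave 0.0040, so no direction of the gene can be read.

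C6 stood out upwards among the terminal components. It read 505 and 663 at 19 months against 409 and 358 at 3 months, above all other arrays (0.60 ± 0.21, adjusted p = 0.304, from 0.213 to 0.771 over the alternatives). C8g, a lipocalin bound to the C8 complex, read 33349 and 31999 at 3 months and 28316 and 26742 at 19 months (-0.25 ± 0.10, adjusted p = 0.378), separated downwards. In all, 1 complement gene was separated upwards and 5 downwards, and in coagulation 3 and 10, against 26.4% and 21.8% of all tested probe sets.

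**Figure D4:**
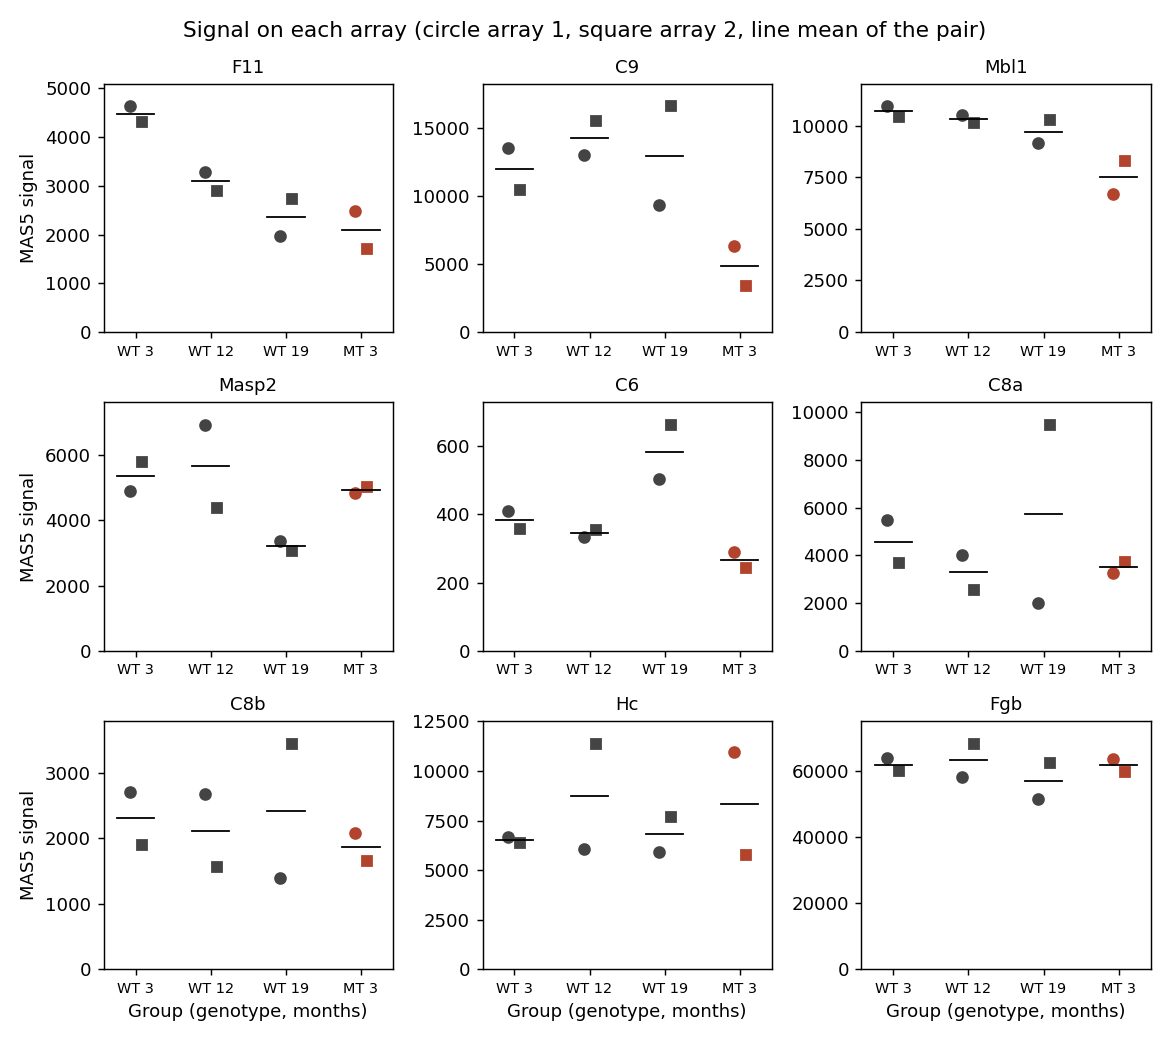
MAS5 signal (linear axis from 0) of 9 members on each array, with circles for array 1, squares for array 2, a line at the mean of each pair and MT in red. F11 is highest on the WT 3-month arrays, C9 and Mbl1 are lowest on the MT arrays, Masp2 is lowest and C6 highest at 19 months, C8a and C8b split widely between the 19-month arrays, and Fgb is steady.

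Several terminal components differed more between arrays of a group than between groups. C8a, the alpha chain of C8, read 5481 and 3670 at 3 months, 4014 and 2553 at 12 months, 2020 and 9471 at 19 months and 3279 and 3722 in MT. The 19-month arrays held both its lowest and its highest value, 4.69-fold apart, a gap wider than the widest pair gap of 98.6% of tested probe sets. C8b, its neighbour and the beta chain, read 1397 and 3444 at 19 months, 2.47-fold apart and again the extremes of the 8 arrays. C9 read 9361 and 16620 there. C8a, C8b, C9 and C6 were all highest on the 19-month array 2, whereas C8g, Mbl2, Masp1 and Masp2 were lowest there. On that array the Kupffer cell markers summed to 34650, on 19-month array 1 to 22200 and elsewhere to 14830 to 19250. At 19 against 3 months 9 of 9 tested markers lay above 0 under all 3 scalings (median 0.71, 0 called, none below the array median on all arrays). With the deposited scaling 47% of all tested probe sets lay below 0. The acute phase proteins summed to 299500 on 19-month array 1, to 364300 on array 2 and elsewhere to 300200 to 368700. Every measured gene of this list but Saa4 (12759 and 11296) read higher on 19-month array 2 than on array 1, as did 22 of the 31 members. Saa1 (1002 and 6011) and Lcn2 (673 and 4553) are examples from the list. The part of either list in these gaps was not tested. Over all members, 5 complement and 2 coagulation genes had a pair more than 0.5 apart on the log2 scale in some group, against 50.8% of tested probe sets.

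Between 19 and 12 months the test called no probe set at all, while 2419 had an unadjusted p under 0.05. Complement had 8 of 12 genes below 0 (median -0.14) and coagulation 10 of 19 (median -0.01), against 45.6% of all tested probe sets. With quantile normalization the counts were 7 of 12 and 5 of 19 and the medians -0.04 and 0.11, and centred on the array medians they were 9 of 12 and 12 of 19. Without the 19-month array 1 the complement median was 0.04, and without the 12-month array 2 the coagulation median was 0.06. Masp2 (6934 and 4396 at 12 months, -0.78 ± 0.20, adjusted p = 0.266) and C6 (0.75 ± 0.21, adjusted p = 0.29) were the members of smallest p. Both had separated arrays, as given above for 19 months.

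Pros1 read 1542 and 1637 at 19 months, above both arrays of 12 months (0.42 ± 0.15, adjusted p = 0.388). Masp1 read 5472 and 5506 at 12 months (-0.30 ± 0.14, adjusted p = 0.483, but 0.05, 0.0024 and 0.40 with its other tested probe sets), C8g 33531 and 32091 (-0.25 ± 0.10, adjusted p = 0.429) and F10 13173 and 18323 (0.34 ± 0.17, adjusted p = 0.515, but -0.09 as a mean over its probe sets). F11 gave -0.41 ± 0.21 (adjusted p = 0.525). Serpinc1, which encodes antithrombin, read 44994 and 51810 at 12 months and 39604 and 42679 at 19 months (-0.23 ± 0.12, adjusted p = 0.528). In coagulation 5 genes were separated upwards and 4 downwards, and in complement 1 and 4, against 23.8% and 17.5% of all probe sets.

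Where other probe sets of a member differed in sign, the sign of the gene is open to the choice of probe set. Kng1 gave 0.03 between MT and WT with its main probe set and -0.36 (adjusted p = 0.239) with the other. Besides F10 and Masp1, given above, F5 and Masp2 agreed in sign between their probe sets in all comparisons, though not in size. For each array the median deviation of complement genes minus that of coagulation genes was 0.04 and 0.04 in WT at 3 months, 0.15 and 0.04 at 12 months, -0.03 and 0.13 at 19 months, and -0.10 and -0.10 in MT. The MT arrays were the lowest on this scale, and the pairs of 12 and 19 months spread more widely than the others.

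Genes of the same systems outside the members were read from lists. Of 16 other coagulation genes tested, 1 passed the test, Tfpi2, a protease inhibitor, which fell in MT liver. It read 8557 and 8382 in WT and 4148 and 4144 in MT (log2 difference -1.03 ± 0.11, adjusted p = 0.0115). The MT arrays lay below all others, as the 12- and 19-month arrays read 6546 to 7133. Its adjusted p was 0.113 without the WT 3-month array 1 and 0.0949 without array 2. Without the variance trend it was 0.0982. Of the 10 other complement components, 0 passed and 7 lay below 0 in MT, with C1ra, a subunit of the C1 protease, nearest (5000 and 4933 in WT, 3427 and 3444 in MT, -0.53 ± 0.13, adjusted p = 0.112) and then Fcna, a ficolin (-0.40 ± 0.19, adjusted p = 0.411). Of 15 complement regulators and receptors 0 passed and 11 lay below 0, of smallest p C4bp, a cofactor for the cleavage of C4b (-0.25, adjusted p = 0.434), and Cd59a, which blocks the membrane attack complex (-0.72, adjusted p = 0.51). Of 2 other fibrinolysis genes tested 0 passed (Plaur 0.17 and Habp2 -0.08). Over all tested probe sets 47.7% lay below 0 in MT.

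Of the acute phase proteins, which the liver makes in inflammation, 16 of 19 lay below 0 in MT with a median of -0.27 (17 with quantile normalization and 19 with median centring). In this list 1 gene passed the test. Orm3, which encodes an orosomucoid, a plasma carrier protein, fell from 711 and 715 in WT to 316 and 188 in MT (-1.55 ± 0.27, adjusted p = 0.0487). It no longer passed when WT array 1 or 2 of 3 months (adjusted p = 0.261 and 0.256), array 1 or 2 of 19 months (0.066 and 0.0671) or MT array 2 (0.128) was left out. The same held under quantile normalization (0.0501), with all probe sets tested (0.0551), without the variance trend (0.148), with the replicate block (0.0644), with the mean over probe sets (0.0674) and with the 2 groups alone (0.0636). Its close paralogs Orm1 and Orm2 may share its probes, which was not tested. Among 15 transcription factors and cytokine receptors or signal proteins that act on such genes 0 passed, and the nearest were Il1r1, the receptor of interleukin 1 (604 and 542 in WT, 310 and 291 in MT, -0.93 ± 0.19, adjusted p = 0.0681), and Socs3, a STAT3 target that limits its signal (588 and 744 in WT, 241 and 337 in MT, -1.21 ± 0.30, adjusted p = 0.118). Neutrophil markers had 3 of 3 tested genes above 0 in MT (median 0.84, 0 called), summing to 1213 to 1499 against 854 to 958 in WT, with Camp and Ltf below the array median on all arrays. Hepatocyte markers summed to 467100 to 492200 in MT and 441700 to 459000 in WT, with 10 of 11 above 0 (7 with quantile normalization, 8 with median centring). Kupffer cell markers had 6 of 9 below 0 in MT, 5 of them separated (median -0.24, 0 called), and summed to 14830 and 17460 against 19030 to 19250 in WT. Endothelial markers had 6 of 8 below 0 (median -0.14, 0 called) and summed to 10020 and 12220 against 11870 to 13080. Stab2, a scavenger receptor of sinusoidal endothelium, was nearest to the threshold (-1.04 ± 0.18, adjusted p = 0.0501). Of the 2 endothelial markers above 0, Lyve1 read 201 and 192 in WT and 472 and 602 in MT, without overlap. Over all tested probe sets 47.7% lay below 0 in MT and 21.7% were separated downwards. The part of these cell types in the members' values was not tested.

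With age, no gene of the complement, coagulation, fibrinolysis, regulator and acute phase lists passed the limma test in WT liver. Of the 16 other coagulation genes 11 lay below 0 at 12 against 3 months and 13 at 19 against 3 months (12 with quantile normalization). Over all tested probe sets 50.5% and 47% lay below 0 in these comparisons. Proz, a vitamin K-dependent cofactor that inhibits factor Xa, and Tfpi2 had the smallest p-values at 12 months (-0.44 ± 0.12, adjusted p = 0.364, and -0.34 ± 0.11, adjusted p = 0.463). At 19 months the smallest belonged to Vkorc1, which recycles the vitamin K that clotting factors need (-0.32 ± 0.11, adjusted p = 0.295), and Tfpi2 (-0.26 ± 0.11, adjusted p = 0.393). Of the acute phase genes Orm2 and Orm3 had the smallest p-values at 12 months (-1.20 and -0.95, adjusted p = 0.36 and 0.38) and Orm2 and Apcs at 19 months (-0.78 and -0.25, adjusted p = 0.381 and 0.435). Among the regulators Il6ra, the receptor of interleukin 6, read 1409 and 1699 at 3 months, 885 and 962 at 12 months and 1013 and 1190 at 19 months (-0.75 ± 0.16, adjusted p = 0.241, and -0.49 ± 0.16, adjusted p = 0.286). Its arrays of both older groups lay below those of 3 months, while the MT arrays, at 1408 and 1444, did not stand apart from them. Cebpa, a C/EBP factor of hepatocytes, had 0.57 ± 0.22 at 19 months (adjusted p = 0.341) and Socs3 -0.99 ± 0.30 at 12 months (adjusted p = 0.42).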

How the data were processed

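The authors deposited 1 table of MAS5 signal intensities, on a linear scale, with 45101 probe sets and 8 arrays of 4 groups. They had scaled each array to a trimmed mean (499.77 to 499.79), which keeps differences between arrays at the bright end where these genes lie. No version of MAS5 is stated in those sources, and detection calls were not used here. Groups came from the sample descriptions. After 64 controls were left out, 34945 probe sets carried 1 gene symbol, 932 several and 9160 none.

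Signals below 1 were set to 1 and put on the log2 scale. The brighter 50% of probe sets by mean log2 signal (22519, mean of at least 6.18) were fitted together for all 4 groups with limma 3.58.1 in R 4.3.3 (lmFit, then eBayes with a trend), on 4 residual and 5.37 prior degrees of freedom. Tests were two-sided, with Benjamini-Hochberg adjustment over all tested probe sets and calls at an adjusted p under 0.05. The fit was also run on simulated data, with normal noise drawn from its own variance estimates. That run checks the code and not the results given here. The number of arrays, 2 a group, limits the precision, and no exact permutation test was run because 2 against 2 arrays allow a p of 0.333 at the lowest.

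The members, lists, tests and alternatives were chosen with earlier results of these data known. Full values are given for called members and, in each comparison, for the 4 members of each class with the smallest p among those whose arrays do not overlap. Outside the members, called genes of a list are named, or the 2 of smallest p. Alternatives were quantile normalization, median centring, a pseudocount of 16, other filters, no variance trend, a robust prior, a replicate block, a mean over probe sets, the 2 groups alone, the methods' t-test and leaving out each array. Promoters came from a RefSeq table of build GRCm38.p6. Tables and plots were made with pandas 2.3.3, numpy 2.4.6 and matplotlib 3.10.9 in Python 3.11.15.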

Additional observations from a re-analysis of the deposited data

How the results depend on the processing

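The 2 arrays a group limit all values, and signal over background was not measured here. No member was called under quantile normalization, median centring, the pseudocount, the replicate block or any filter. A robust variance prior called 1 member (F11 in MT, -1.12, adjusted p = 0.0382), with 233 probe sets called in MT, 2 between 19 and 12 months and 172 in the F test, and the methods' t-test with a fold over 1.5 called 1 member (Masp2 at 19 months) with 890, 502, 750 and 524 probe sets in the 4 comparisons, but 0 after Benjamini-Hochberg. Leaving out 1 array, which leaves a group with a single array assumed to vary like the others, gave 0 to 1 members in MT and 0 to 0 elsewhere, and 13 to 255 probe sets in MT, 0 to 20 at 12 against 3 months, 2 to 30 at 19 against 3, 0 to 11 at 19 against 12 and 12 to 195 in the F test, the lowest of MT without a WT 3-month array (14 without array 1, 13 without array 2). Other counts of called probe sets that moved over 1.5 times were 5 and 21 (12 and 19 against 3 months) with median centring, 3 (19 against 12) with all probe sets tested, 177 (MT) and 3 (19 against 3) with the upper 25%, 9, 0, 1 and 3 (MT, 12 against 3, 19 against 3, F test) without the variance trend, 39, 0, 1 and 4 (the same) with the mean over probe sets, and 12, 135 and 5 (12 against 3, 19 against 3, 19 against 12) with the 2 groups alone.

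Quantile normalization moved the coagulation median to 0.042 at 19 against 3 months and to 0.11 at 19 against 12, and the complement median to -0.034 and -0.038. Median centring moved the medians at 12 against 3 months to -0.011 (complement) and -0.0035 (coagulation). Leaving out 1 array gave complement medians of -0.26 to -0.16 (MT), -0.11 to -0.021 (12 against 3), -0.25 to 0.017 (19 against 3) and -0.21 to 0.044 (19 against 12), and coagulation medians of -0.083 to 0.0023, -0.15 to -0.0065, -0.17 to -0.075 and -0.076 to 0.064. For named genes 590 of the values kept direction and side, 2 passed newly (F11, above and without MT array 1), 18 no longer passed (all of Tfpi2, Orm3 and Igha) and 2 reversed, both with the mean over probe sets: Masp1 at 19 against 3 months (0.0040) and F10 at 19 against 12 (-0.085). Apart from the array or probe sets left out, the cause of these changes was not tested.

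Replicate numbers are shared across groups, and the deviations of same-numbered arrays correlated by -0.03 to 0.14. These low values cannot exclude a weak pairing or a shared batch, and the main fit used no block. A fit with the replicate number as a block called 129, 3, 25, 0 and 99 probe sets (MT, 12 against 3, 19 against 3, 19 against 12, F test) and 0 members. The main fit called 116, 3, 8, 0 and 97 probe sets and also 0 members.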

Other observations

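Of the 10 other complement components tested, 7 lay above their 3-month level in WT liver at 19 months (median 0.28), and none passed the limma test. Over all tested probe sets 47% lay below 0. Cfp, which encodes properdin, read 984 and 1063 at 3 months and 1586 and 2253 at 19 months (log2 difference 0.89 ± 0.20, adjusted p = 0.182), and C1qb read 2755 and 2300 at 3 months and 3284 and 4664 at 19 months (0.64 ± 0.19, adjusted p = 0.263). Vsig4, a receptor of C3 fragments on Kupffer cells, read 4557 and 4420 at 3 months and 6568 and 10846 at 19 months (0.91 ± 0.23, adjusted p = 0.21), and Cpn1, a carboxypeptidase made by hepatocytes that trims anaphylatoxins, had 0.48 ± 0.14 (adjusted p = 0.245). These genes were named for their p-values. In each the arrays did not overlap, and for Cfp, C1qb and Vsig4 array 2 of 19 months was the highest of all. The 3 complement components below 0 included Fcna, a ficolin of macrophages (-0.44 ± 0.19, adjusted p = 0.399), and C2 (-0.28 ± 0.16, adjusted p = 0.524), both without overlap. The Kupffer cell markers, a list that holds Vsig4 itself, also lay above 0 (9 of 9, sums of 22200 and 34650 against 19030 to 19250 at 3 months). Since Cfp and C1qb were picked for their p-values, moving the same way is no independent sign, and the part of these cells was not tested.

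Igha, the heavy chain of immunoglobulin A, rose with age. It read 270 and 313 in WT at 3 months, 1721 and 1553 at 12 months, 2459 and 3514 at 19 months, and 519 and 611 in MT. The log2 difference from 3 months was 2.49 ± 0.20 at 12 months (adjusted p = 0.00902) and 3.34 ± 0.20 at 19 months (adjusted p = 0.00065), and at 12 months it no longer passed when array 1 or array 2 of 3 months was left out (adjusted p = 0.0591 and 0.0604), without the variance trend (0.131) or with the mean over probe sets (2.27, adjusted p = 0.2). It was the only called gene among 9 tested lymphocyte markers. Jchain, which joins the subunits of secreted antibodies, read 232 and 237 at 3 months and 1373 and 1775 at 19 months (2.74 ± 0.37, adjusted p = 0.0675), and Ighm, the heavy chain of immunoglobulin M, 329 and 581 against 4317 and 1986 (2.74 ± 0.55, adjusted p = 0.151). The T and B cell markers did not share this size of difference, and Gzma, a granzyme, went the other way with 190 and 275 against 69 and 49 (-1.98 ± 0.37, adjusted p = 0.123). Cd79a lay below the array median on all arrays. Endothelial, stellate, cholangiocyte, platelet and exocrine pancreas lists had 0 called genes in any comparison.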
